A study of Mus musculus with 6 samples.

Results

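The genes described here are 48 genes of skeletal muscle, for the contractile sarcomere, its calcium handling and acetylcholine receptor, its energy metabolism and its transcription factors, measured in mouse dorsal root ganglia. They were chosen by symbol, with earlier results of these arrays known. They are 48 of 17174 genes that could be named on the array. All 48 had at least 1 probe, 77 of the 41174 probes in all, and 46 genes (67 probes) passed the filter on dim probes. By role the list holds 13 fast fibre, 9 slow fibre and 3 embryonic or neonatal genes, 4 myogenic regulators, 7 sarcomere and desmin genes shared by fibre types, 5 genes of the triad and the synapse, 6 of metabolism, and Pvrl1. Pvrl1, now named Nectin1, encodes a cell adhesion protein and is not a muscle gene, so it is given apart.

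The dorsal root ganglia were taken at postnatal day 4 from 3 dt27J and 3 WT mice on the C57BL/6 background, which came from 2 litters. The WT mice were littermates, and the labels call this age a stage before the phenotype of dt27J mice. dt27J is an allele of dystonia musculorum, in which the gene for the cytoskeletal linker dystonin, Dst, is mutated. The labels do not say whether the dt27J mice were homozygous. Each animal gave 1 array, hybridised with Cy3-labelled cRNA made from 300 ng of total RNA. dt27J 1, dt27J 2, WT 1 and WT 2 carry the first of 2 label dates, and dt27J 3 and WT 3 the second. How the dates relate to the litters is not stated.

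Skeletal muscle fibres contract by sliding myosin heavy chains, each with a pair of light chains, along actin filaments that carry tropomyosin and the calcium-sensing troponin complex. Fast and slow fibres use different genes for most of these proteins, and fibres around birth still carry embryonic and neonatal myosins. The myogenic regulators are transcription factors that bind the E-box and switch on the muscle programme. Ganglia consist of the cell bodies of sensory neurons with glia, vessels and connective tissue, and are not muscle.

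The mutated gene and the tissue were checked first. Dst fell on all 3 of its tested probes, by 2.42, 2.68 and 2.46 on the log2 scale (limma adjusted p = 0.038, 0.034 and 0.045). The probe at 2.68 was well above background on all 6 arrays. The probes at 2.42 and 2.46 were so on 2 of 3 dt27J arrays and passed the filter on dim probes through WT alone. The sizes of those falls therefore rest partly on values near background. Where the 3 probes lie relative to the mutation is not stated. All 14 tested sensory neuron genes were well above background on all 6 arrays. Before the muscle genes are described, a division among the arrays has to be given, because it crosses the genotypes. Relative to each gene's mean over the 6 arrays, the median of the 11 tested spinal cord genes was -1.42, -1.43 and -0.82 on dt27J 1, 2 and 3, against 2.73, 2.52 and -0.80 on WT 1, 2 and 3. WT 1 and WT 2 were above the other 4 arrays for 11 of these 11 genes, against 11.9% of all tested probes. Olig1, Gfap, Pax2 and Slc1a2, named after their values were seen, were not well above background on every dt27J array. They passed the filter through WT alone, so their order rests partly on values near background. The median of the 10 tested fat genes was 1.28, 0.98 and -0.93 on the dt27J arrays, against -0.85, -0.86 and 0.40 on the WT arrays. The sensory neuron median was -0.86, -0.73 and 0.10 on the dt27J arrays, against 0.39, 0.46 and 0.43 on the WT arrays. These are whole ganglia, so fewer cells of a type and less RNA per cell cannot be told apart.

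Levels are log2 values relative to the 75th percentile of an array, so that 0 is the signal below which 75% of its probes lie, and a difference of 1 is a doubling. A gene is represented by its brightest tested probe, and no level is set against that of another gene. Part of the skeletal muscle list rose in dt27J ganglia: 8 of the 46 tested genes (17.39%) passed an adjusted p of 0.05 with a higher level in dt27J, against 1.31% of the 26248 tested probes (3.19% in either direction). Of these 8, 7 were well above background on all 6 arrays, and Mybpc1 entered the test through dt27J alone. None passed with a lower level, against 1.88% of the probes. At an unadjusted p under 0.05 the count was 36 of 46 (78.26%), against 27.7% of the probes, and among these 36 Chrnd was the one that was lower. The median difference over the 46 genes was 1.62 on the log2 scale, against -0.050 over all tested probes. It was positive for 44 of 46 genes, against 46.4% of the probes, and negative for Chrnd and Pvrl1. Of the 46 genes, 40 were well above background on all 6 arrays and 6 passed the filter through 1 genotype only. Myf5 and Cacng1 did not pass, and Myf5 was well above background on no array.

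**Figure D1:**
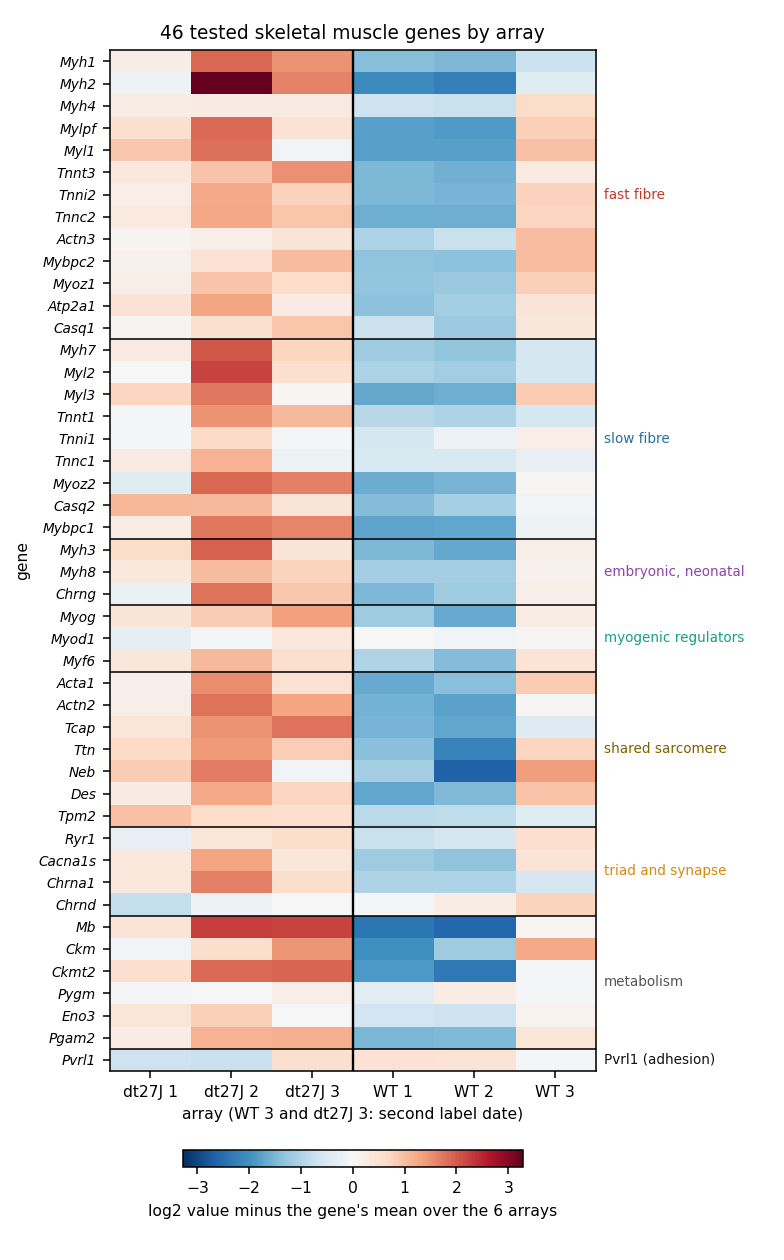
Heat map of the 46 tested skeletal muscle genes, grouped by role (rows), on the 3 dt27J and 3 WT arrays (columns), as log2 value minus the gene's own mean over the 6 arrays. WT 1 and WT 2 are below the other 4 arrays for 42 of the 46 genes, and dt27J 2 is the highest array for 29.

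The order of the arrays was not simply that of the genotypes. The median of the 46 genes relative to their own means was 0.25, 1.26 and 0.60 on dt27J 1, 2 and 3, against -1.33, -1.34 and 0.23 on WT 1, 2 and 3. WT 3 therefore stood beside the dt27J arrays, and WT 1 and WT 2 stood apart from the other 4. Both were below the other 4 arrays for 42 of 46 genes (91.3%), against 10.8% of all tested probes, and both were above them for 0 of 46, against 11.9% of the probes. The 4 exceptions were Myod1, Chrnd, Pygm and Pvrl1. Among the 42, Casq1, Mybpc1, Chrng, Myf6 and Neb passed the filter through dt27J alone, so their order rests partly on values near background. This division was proposed with the values known and follows them, so it carries no test. By comparison, every dt27J array was above every WT array for 18 of 46 genes (39.13%), against 12.8% of the probes. WT 3 was above WT 1 and WT 2 for 44 of 46 genes, against 39.2% of the probes, and the median excess was 1.65.

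The arrays of one genotype and date also differed in these genes. dt27J 2 was above dt27J 1 for 43 of 46 genes, with a median difference of 0.87, and it was the highest array for 29 genes. dt27J 3 was the highest for 11, WT 3 for 3, dt27J 1 for 2, WT 2 for 1 and WT 1 for none. The median size of the difference between dt27J 1 and dt27J 2 was 0.869 over the muscle genes and 0.234 over all tested probes. Between WT 1 and WT 2 it was 0.133 over the muscle genes, below the 0.218 over all probes.

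Promoters are shown for the 6 genes called in the comparisons below that have exactly 1 entry among the RefSeq promoters of assembly GRCm38.p6, because these are the genes the results turn on. Each sequence is the 250 bases before the start of the gene, 5′ to 3′ on the gene's own strand, with every E-box (CANNTG, the same on both strands) in capitals.
Myog (chr1:134289754-134290003, plus strand): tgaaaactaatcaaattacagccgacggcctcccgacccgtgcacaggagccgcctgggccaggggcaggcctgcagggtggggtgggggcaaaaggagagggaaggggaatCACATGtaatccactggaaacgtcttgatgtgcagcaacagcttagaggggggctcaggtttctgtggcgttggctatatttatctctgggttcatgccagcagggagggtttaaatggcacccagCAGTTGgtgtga
Myh1 (chr11:67199852-67200101, plus strand): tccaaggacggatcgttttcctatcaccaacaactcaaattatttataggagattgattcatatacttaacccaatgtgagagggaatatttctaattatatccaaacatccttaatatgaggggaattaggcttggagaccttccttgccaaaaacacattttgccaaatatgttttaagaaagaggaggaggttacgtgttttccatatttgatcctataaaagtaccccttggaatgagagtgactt
Mybpc1 (chr10:88605153-88605402, minus strand): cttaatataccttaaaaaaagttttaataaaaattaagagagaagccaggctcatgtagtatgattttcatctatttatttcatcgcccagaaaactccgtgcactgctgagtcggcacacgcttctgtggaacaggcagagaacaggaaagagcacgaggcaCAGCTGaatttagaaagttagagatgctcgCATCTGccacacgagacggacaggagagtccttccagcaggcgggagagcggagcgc
Tpm2 (chr4:43523555-43523804, minus strand): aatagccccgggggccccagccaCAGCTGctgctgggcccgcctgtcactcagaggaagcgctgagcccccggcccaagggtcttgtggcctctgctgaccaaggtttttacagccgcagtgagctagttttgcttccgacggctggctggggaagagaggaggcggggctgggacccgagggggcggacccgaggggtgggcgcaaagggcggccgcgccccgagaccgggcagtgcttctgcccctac
Ckmt2 (chr13:91876886-91877135, minus strand): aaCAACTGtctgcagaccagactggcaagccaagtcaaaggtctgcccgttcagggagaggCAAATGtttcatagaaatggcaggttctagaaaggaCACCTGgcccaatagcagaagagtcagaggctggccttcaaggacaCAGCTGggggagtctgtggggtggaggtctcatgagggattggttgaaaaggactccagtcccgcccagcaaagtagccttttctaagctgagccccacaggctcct
Myl1 (chr1:66945057-66945306, minus strand): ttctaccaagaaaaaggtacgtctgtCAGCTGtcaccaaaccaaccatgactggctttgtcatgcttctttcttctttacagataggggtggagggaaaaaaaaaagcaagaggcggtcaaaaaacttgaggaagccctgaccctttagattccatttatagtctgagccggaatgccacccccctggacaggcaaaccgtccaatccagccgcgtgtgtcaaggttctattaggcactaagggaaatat
An entry was found for 37 of the 48 genes. Tcap, Actn3, Tnnt3, Tnni2, Neb, Myoz1, Pvrl1, Cacng1, Chrnd, Myod1 and Myf6 were without one. An E-box was present in 33 of the 37 (89.2%), against 69.3% of all 27018 genes with a promoter entry. The E-box CAGCTG, which is 1 form of CANNTG, was present in 20 of 37 (54.1%), against 14.7% of all genes, and the box of the muscle factor MEF2 in 7 of 37 (18.9%), against 3.41%. The CArG box, bound by serum response factor, was found in 3 of 37 (8.11%), against 1.62%, and TATAAA, on either strand, in 8 of 37 (21.6%), against 14.3%. Among the sequences shown, Ckmt2 has 4 E-boxes, Myog and Mybpc1 have 2 each, Tpm2 and Myl1 have 1 each, and Myh1 has none but holds a MEF2 box and TATAAA. Myl1 also holds TATAAA, on the other strand. Such matches are descriptions of these letters and do not show binding.

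Among the fast fibre genes, Myh1 and Tnnt3 rose in dt27J ganglia, and all 13 differences were positive with a median of 1.48. Myh1, the myosin heavy chain of fast type IIx fibres, had log2 levels of 1.58, 3.23 and 2.80 in dt27J ganglia, against -0.070, -0.15 and 0.63 in WT ganglia. No dt27J array overlapped a WT array, and the mean was 5.29-fold higher in dt27J (log2 difference 2.40, SE 0.41, limma adjusted p = 0.047). A second, dim Myh1 probe differed by -0.17 (adjusted p = 0.60), so the probes of this gene disagree, and with the mean over both probes the difference was 1.12 (adjusted p = 0.063). Tnnt3, the fast troponin T that anchors the troponin complex to tropomyosin, stood at 1.34, 1.93 and 2.50 in dt27J ganglia, against -0.46, -0.57 and 1.30 in WT ganglia. Here WT 3 was just below dt27J 1, and the difference was 1.84 (SE 0.28, 3.57-fold, limma adjusted p = 0.044). The second Tnnt3 probe gave 1.97 (adjusted p = 0.047).

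The other fast fibre genes did not pass the threshold. Myh2, the type IIa heavy chain, had the widest spread, with 1.74, 5.19 and 3.53 in dt27J ganglia, against -0.19, -0.32 and 1.5 in WT ganglia. Its difference of 3.16 had an SE of 0.85 (limma adjusted p = 0.076), and dt27J 2 was above dt27J 1 by 3.45. Tnnc2, fast troponin C, had 5.24, 6.20 and 5.82 in dt27J ganglia, against 3.31, 3.32 and 5.64 in WT ganglia (difference 1.66, adjusted p = 0.091). WT 3 lay inside the range of the dt27J arrays there. The same held for Tnni2, fast troponin I, with 4.11, 5.14 and 4.65 in dt27J ganglia, against 2.43, 2.37 and 4.64 in WT ganglia (difference 1.48, adjusted p = 0.12). Mylpf, the fast regulatory light chain, differed by 1.91 (adjusted p = 0.14), and Casq1, the fast calcium store protein calsequestrin, by 1.03 (adjusted p = 0.071). Casq1 entered the test through its dt27J arrays alone, so its difference depends partly on dim WT signal. That difference shrank to 0.24 under normexp background correction (limma adjusted p = 0.52). The fast calcium pump Atp2a1, the myosin-binding protein Mybpc2 and the Z-disc proteins Myoz1 and Actn3 differed by 1.37, 1.1, 1.15 and 0.51. On all 4 of them WT 3 was within the range of the dt27J arrays or above it. A second Atp2a1 probe, well above background on all 6 arrays, differed by only 0.15 (limma adjusted p = 0.74).

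Myh4, the type IIb heavy chain, had another order of arrays than Myh1 and Myh2. Its brightest probe read 1.47, 1.51 and 1.53 in dt27J ganglia, against 0.55, 0.49 and 1.84 in WT ganglia, so the dt27J arrays hardly varied and WT 3 was the highest array. The difference was 0.54 (adjusted p = 0.28). On a second Myh4 probe the levels were 1.04, 0.052 and -1.0 in dt27J ganglia, against 1.25, 0.80 and 2.59 in WT ganglia, a difference of -1.52 (adjusted p = 0.18). The 2 probes thus differed in sign.

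Of the slow fibre genes, Mybpc1 passed the threshold, and all 9 differences were positive with a median of 1.72. Mybpc1, slow myosin-binding protein C of the thick filament, had -3.44, -1.94 and -2.07 in dt27J ganglia, against -5.41, -5.39 and -3.84 in WT ganglia. It was well above background on 3 dt27J arrays and on 1 WT array, WT 3, so it entered the test only through the genotype where it is high, and the difference of 2.40 (SE 0.42, limma adjusted p = 0.047) rests on values at background on WT 1 and WT 2. With normexp background correction it was 0.57 (adjusted p = 0.26). Myh7, the heavy chain of slow fibres, had 2.03, 3.77 and 2.42 in dt27J ganglia, against 0.56, 0.42 and 1.16 in WT ganglia. These groups did not overlap, but the difference of 2.03 did not pass (SE 0.48, adjusted p = 0.062). Groups were also separate for Tnnt1, slow troponin T, at -0.23, 1.32 and 0.91 in dt27J ganglia, against -1.08, -1.17 and -0.74 in WT ganglia (difference 1.66, adjusted p = 0.062). Casq2, the calsequestrin of slow and heart muscle, differed by 1.72 (adjusted p = 0.057), Myl2, a slow regulatory light chain, by 1.83 (adjusted p = 0.098), and Myoz2, a Z-disc protein, by 2.08 (adjusted p = 0.076). Tnnc1 and Tnni1, the slow troponins C and I, differed by 0.86 and 0.37 (adjusted p = 0.15 and 0.45).

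Myl3, a light chain of slow and ventricular muscle, had 1.58, 2.62 and 0.91 in dt27J ganglia, against -0.81, -0.73 and 1.72 in WT ganglia on its brightest probe (difference 1.64, adjusted p = 0.20). WT 3 was above 2 of the 3 dt27J arrays. A second Myl3 probe differed by -1.06 (adjusted p = 0.078), again with the opposite sign.

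All 3 genes of immature fibres were higher on average in dt27J, and none passed the threshold. Myh8, the neonatal heavy chain, had 4.83, 5.52 and 5.21 in dt27J ganglia, against 3.35, 3.33 and 4.62 in WT ganglia (difference 1.42, SE 0.33, adjusted p = 0.060). Every dt27J array was above every WT array. Myh3, the embryonic heavy chain, had -0.29, 1.04 and -0.48 in dt27J ganglia, against -2.39, -2.58 and -0.71 in WT ganglia (difference 1.98, adjusted p = 0.093). Chrng, the acetylcholine receptor subunit used before birth, differed by 1.63 (adjusted p = 0.12) and was well above background on 2 of 3 WT arrays.

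Of the 4 myogenic regulators, 3 were tested and 1 passed the threshold. Myog, which drives the fusion and differentiation of myoblasts, rose: it had -1.89, -1.48 and -0.96 in dt27J ganglia, against -3.46, -3.96 and -2.06 in WT ganglia. The groups did not overlap, although WT 3 was close below dt27J 1, and the mean was 3.28-fold higher in dt27J (difference 1.72, SE 0.29, limma adjusted p = 0.046). With normexp background correction the difference was 0.77 (adjusted p = 0.11), and the call was lost. Myod1, which commits cells to the muscle lineage, had -4.67, -4.41 and -4.02 in dt27J ganglia, against -4.35, -4.46 and -4.33 in WT ganglia (difference 0.013, adjusted p = 0.97). Its arrays overlapped fully. Myf6, a regulator kept in mature fibres, had -4.23, -3.53 and -4.08 in dt27J ganglia, against -5.59, -6.04 and -4.17 in WT ganglia, and was well above background on WT 3 but not on WT 1 or WT 2 (difference 1.32, adjusted p = 0.11). Myf5, an early regulator, was not tested.

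The genes shared by fibre types included Tcap and Tpm2, which rose, and all 7 differences were positive with a median of 1.62. Tcap, or telethonin, which caps titin at the Z disc, had 1.34, 2.41 and 2.73 in dt27J ganglia, against -0.59, -0.75 and 0.53 in WT ganglia. Groups were separate, the mean was 5.39-fold higher in dt27J, and this was the smallest adjusted p of the list (difference 2.43, SE 0.31, limma adjusted p = 0.041). Tpm2, a tropomyosin, had 1.62, 1.27 and 1.23 in dt27J ganglia, against -0.22, -0.16 and 0.26 in WT ganglia (difference 1.41, SE 0.23, 2.66-fold, limma adjusted p = 0.045). Its dt27J arrays were close to each other, dt27J 1 was the highest array, and a second probe gave 1.48 (adjusted p = 0.043). Tpm2 is also made by smooth muscle, whose 7 tested genes had medians of 0.81, 0.39 and -0.10 on the dt27J arrays, against -0.18, -0.38 and 0.0072 on the WT arrays; the part of smooth muscle in this result was not tested.

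Acta1, skeletal actin, did not pass, with 1.81, 3.18 and 2.17 in dt27J ganglia, against 0.012, 0.29 and 2.48 in WT ganglia (difference 1.46, adjusted p = 0.17). WT 3 was above 2 of the dt27J arrays. Actn2, an alpha-actinin of the Z disc, differed by 2.18 with separate groups (adjusted p = 0.057). The giant spring protein titin, Ttn, differed by 1.91 on its brightest probe (adjusted p = 0.095) and by 0.51 to 1.5 on the 4 other tested probes. Neb, the nebulin of the thin filament, differed by 1.62 (adjusted p = 0.30), and the intermediate filament desmin, Des, by 1.48 (adjusted p = 0.14).

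In the triad, where the voltage sensor meets the calcium release channel, no gene passed. Cacna1s, the voltage sensor, had 0.24, 1.19 and 0.28 in dt27J ganglia, against -1.26, -1.42 and 0.33 in WT ganglia (difference 1.35, adjusted p = 0.13), with WT 3 inside the dt27J range. Ryr1, the release channel, differed by 0.48 (adjusted p = 0.29). Of the receptor subunits at the nerve-muscle synapse, Chrna1 had -2.08, -0.79 and -1.86 in dt27J ganglia, against -3.45, -3.43 and -2.99 in WT ganglia (difference 1.71, adjusted p = 0.057). A second Chrna1 probe differed by 0.90 (limma adjusted p = 0.21), with overlapping groups. Chrnd ran the other way, with -5.29, -4.67 and -4.50 in dt27J ganglia, against -4.56, -4.26 and -3.79 in WT ganglia. Its difference of -0.61 did not pass (adjusted p = 0.16), and it was well above background on 2 of 3 dt27J arrays. Cacng1, a further subunit of the voltage sensor, was not tested.

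Among the 6 genes of metabolism Mb and Ckmt2 rose, and Mb had the largest difference of the list. Mb, the oxygen store myoglobin, had -1.33, 0.53 and 0.46 in dt27J ganglia, against -4.13, -4.33 and -1.67 in WT ganglia, which is 9.60-fold higher in dt27J (difference 3.26, SE 0.55, limma adjusted p = 0.047). Ckmt2, the mitochondrial creatine kinase of muscle, had -2.0, -0.68 and -0.63 in dt27J ganglia, against -4.44, -4.90 and -2.62 in WT ganglia (difference 2.88, SE 0.43, 7.36-fold, limma adjusted p = 0.043). For both genes WT 3 lay above WT 1 and WT 2 and below every dt27J array. With normexp background correction neither was called, at 1.63 for Mb (adjusted p = 0.082) and 1.2 for Ckmt2 (adjusted p = 0.089), and Myh2 then had a larger difference than Mb, at 2.99. Ckm, the cytosolic creatine kinase, had -2.20, -1.52 and -0.64 in dt27J ganglia, against -4.11, -3.25 and -0.86 in WT ganglia (difference 1.29, adjusted p = 0.11). Here WT 3 exceeded 2 of the dt27J arrays. The glycolytic enzymes Pgam2 and Eno3 differed by 1.70 and 0.79 (adjusted p = 0.057 and 0.17). Pygm, the phosphorylase that breaks down glycogen, had -3.12, -3.02 and -2.82 in dt27J ganglia, against -3.39, -2.79 and -3.12 in WT ganglia (difference 0.11, adjusted p = 0.78), and its groups overlapped fully.

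**Figure D2:**
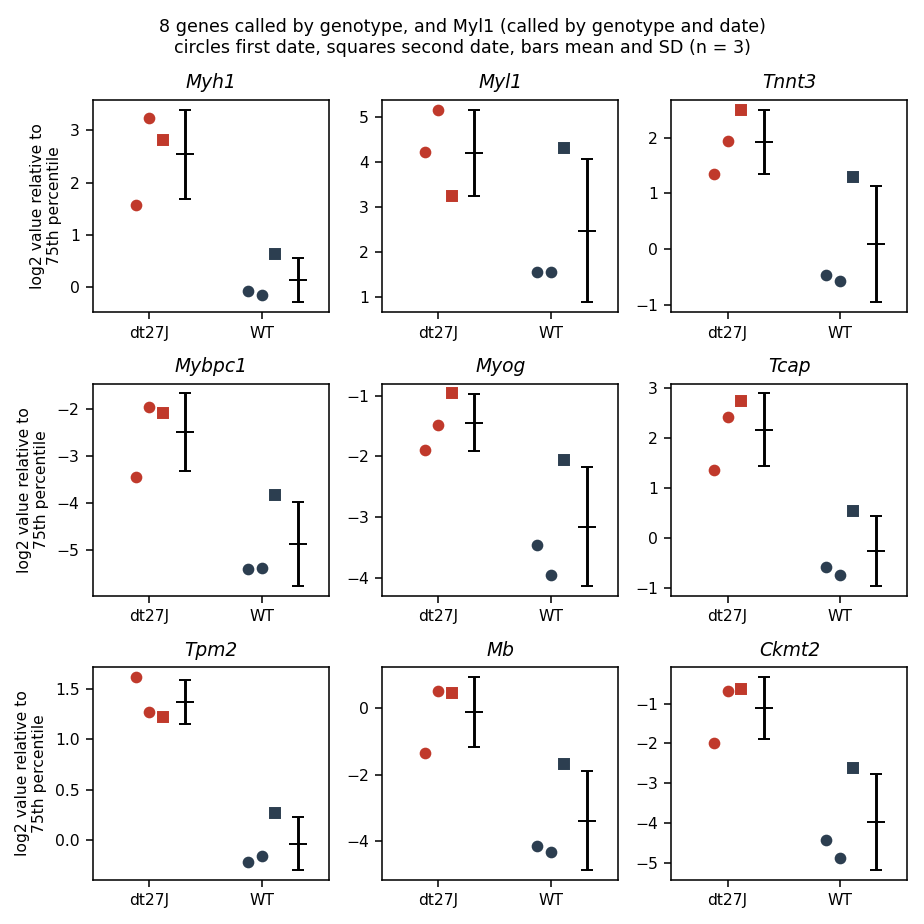
Log2 value relative to the array's 75th percentile on each dt27J and WT array for the 8 genes called by genotype and for Myl1; circles are arrays of the first date, squares those of the second, and bars the mean and SD (n = 3 per genotype). In the 8 called genes the WT square (WT 3) is above both WT circles and below every dt27J array, and in Myl1 it is above the dt27J square.

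Pvrl1 had 2.96, 2.91 and 4.18 in dt27J ganglia, against 4.11, 4.09 and 3.62 in WT ganglia (difference -0.59, SE 0.36, adjusted p = 0.33), with its low arrays being dt27J 1 and dt27J 2.

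The 8 calls lie close to the threshold, with adjusted p between 0.041 and 0.047, and none of them passed without WT 1, without WT 2 or without dt27J 1, while 6 genes of the list passed without dt27J 2 and 37 without dt27J 3 or WT 3, either of which leaves the first date alone. No gene passed without the date term (30 at an unadjusted p under 0.05, limma) or without the filter on dim probes (28 likewise).

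Because the arrays fell into 2 dates, the genotype difference was also taken within each. At the first date, with 2 arrays per genotype, the median difference of the muscle genes was 2.14, against -0.0079 over all probes, and 43 of 46 were positive, against 49.5% of the probes. At the second date, with 1 array per genotype, it was 0.26, against -0.13 over all probes, and 32 of 46 were positive, against 42.7% of the probes. For the 42 genes with WT 1 and WT 2 below the other arrays, the first-date differences ran between 0.68 for Tnni1 and 3.83 for Mb. Their positive sign follows from how the 42 were picked. Outside the 42 the first-date differences were 0.019 for Pygm, -0.13 for Myod1, -0.57 for Chrnd and -1.17 for Pvrl1. The difference was larger at the first date for 43 of 46 genes, the exceptions being Myod1, Pygm and Pvrl1.

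**Figure D3:**
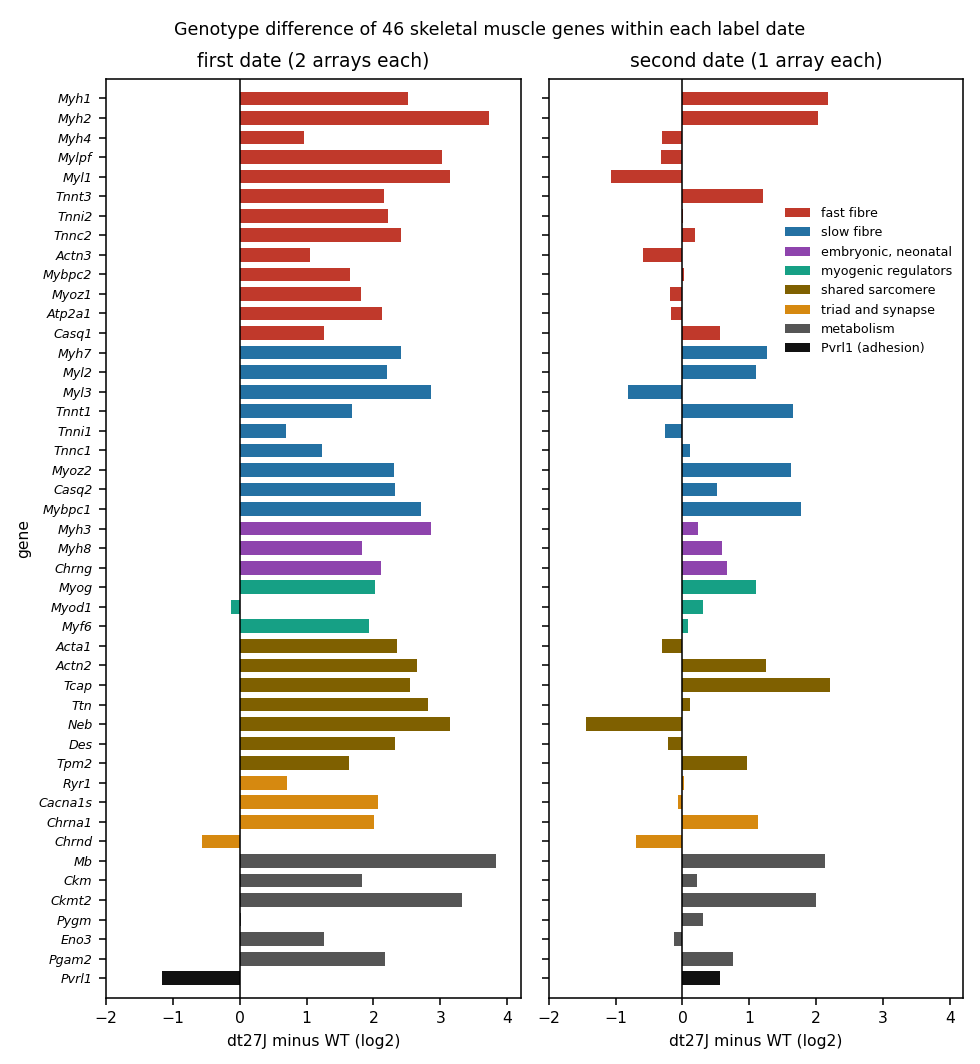
Difference dt27J minus WT (log2) of the 46 tested genes at the first label date (left panel, means of 2 arrays per genotype) and at the second (right panel, 1 array per genotype), coloured by role. The median is 2.14 at the first date and 0.26 at the second. At the second date 32 of 46 genes are positive, against 42.7% of all tested probes. Mb, Tcap, Myh1 and Myh2 are above 2 there, and Neb, Myl1 and Myl3 are the lowest of the genes below 0.

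Whether the difference changed with date was tested as an interaction. At an adjusted p of 0.05, 1 of 46 genes passed, against 0.831% of all tested probes (0.472% with the larger difference at the first date, as here), and 23 of 46 (50%) had an unadjusted p under 0.05, against 27.5% of the probes. The gene was Myl1, the fast essential light chain, with 4.23, 5.16 and 3.24 in dt27J ganglia, against 1.56, 1.55 and 4.31 in WT ganglia. Its genotype difference was 3.14 at the first date and -1.07 at the second, and the first minus the second was 4.21 (SE 0.56, limma adjusted p = 0.046). The second Myl1 probe showed 5.87 in the same test (adjusted p = 0.036). The brightest probe of Neb had 4.60 (adjusted p = 0.067). Only 1 of WT 1 and WT 2, at -3.96 and -5.46, was well above background on that probe. A second Neb probe was at 4.30 (adjusted p = 0.019), but it was well above background on neither WT 1 nor WT 2, so this value is taken against background signal. Without WT 1 or without WT 2 no gene passed, without dt27J 1 or dt27J 2 it was 32 and 17 genes, and no gene passed with quantile normalization or without the filter on dim probes (21 and 20 at an unadjusted p under 0.05, limma). The spread in this test comes from the first-date arrays, since the second date has 1 array per genotype.

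The fast and slow fibre genes are set side by side here as a description, with no test. WT 3 exceeded the mean of WT 1 and WT 2 by a median of 1.91 over the 13 fast and 0.67 over the 9 slow genes. The second-date difference between dt27J and WT had a median of 0.013 over the fast genes, with 7 of 13 positive, and of 1.1 over the slow genes, with 7 of 9 positive. dt27J 2 exceeded dt27J 1 by 0.82 over the fast and 1.50 over the slow genes. Every dt27J array was above every WT array for 3 of 13 fast and 6 of 9 slow genes, against 12.8% of all probes. The slow genes with this order were Myh7, Myl2, Tnnt1, Tnnc1, Casq2 and Mybpc1, and the fast ones Myh1, Myh2 and Tnnt3. The embryonic and neonatal genes had a second-date median of 0.59 (3 of 3 positive), and the shared sarcomere genes one of 0.12 (4 of 7 positive).

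Other muscle genes, taken from a list outside the 48, were looked at beside them. Of 33 tested, Myom1 and Hrc rose, by 1.87 and 1.67, against 1.31% of all tested probes called higher (limma, adjusted p under 0.05). Chrne, the adult receptor subunit, fell by 1.77, against 1.88% of the probes called lower in the same test. Myom1 and Hrc were named after their values were seen. The median difference of the 33 genes was 0.68 with 24 of 33 positive, against 46.4% of the probes. Xirp2, a protein of muscle cell junctions, had the largest difference at 2.59 without passing. WT 1 and WT 2 were below the other arrays for 19 of 33, against 10.8% of the probes. Of 7 tested genes of muscle progenitors none was called. At an unadjusted p under 0.05 (limma) the count was 3 of 7, against 27.7% of the probes. The differences ran both ways, between -1.09 for Mymk and 0.96 for Megf10, with 2 of 7 positive, against 46.4% of the probes. The muscle stem cell factor Pax7, chosen after its values were seen, had -5.16, -5.27 and -4.86 in dt27J ganglia, against -4.86, -4.20 and -4.63 in WT ganglia. Pax7 was well above background on 1 of 3 dt27J arrays and passed the filter through WT alone, so its values lie partly near background. The median of the 11 tested heart genes relative to their own means was between -0.0055 and 0.14 on every array, and single genes had differences in both directions. Tnnt2, the troponin T of heart and of immature skeletal muscle, had the largest difference among them, with -2.25, -0.89 and -2.02 in dt27J ganglia, against -3.54, -3.35 and -2.55 in WT ganglia (difference 1.43, adjusted p = 0.095), and its groups did not overlap.

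**Figure D4:**
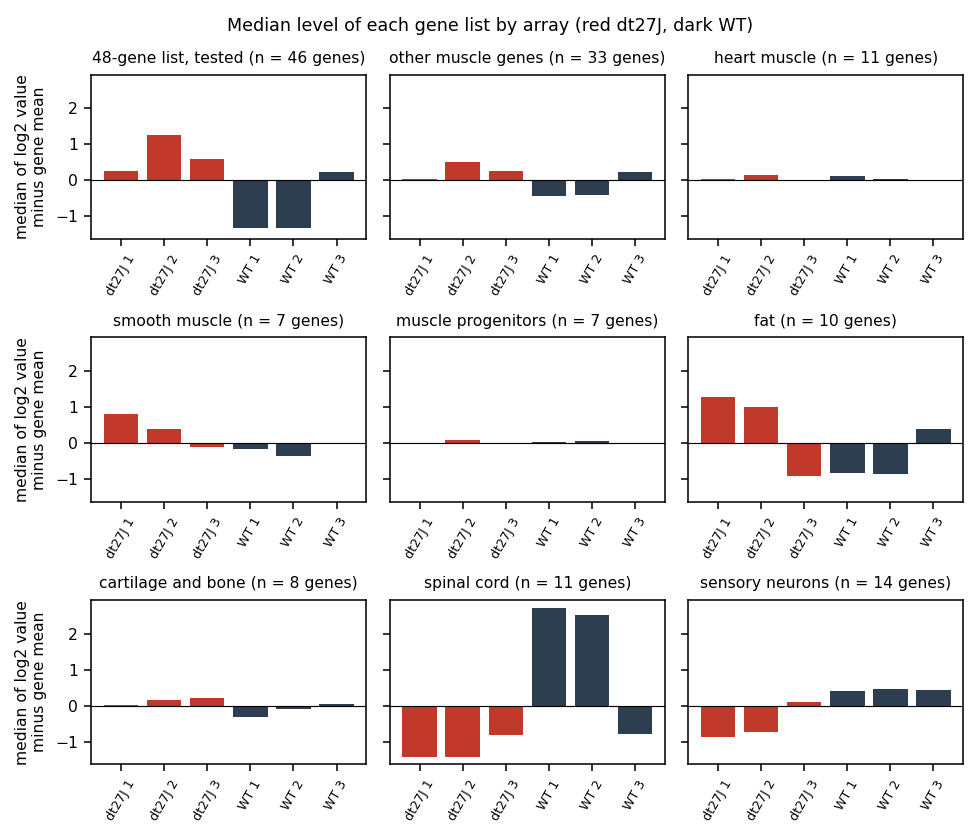
Median over the tested genes of each list (log2 value minus the gene's mean over the 6 arrays) on the dt27J arrays (red) and the WT arrays (dark). The muscle list is lowest on WT 1 and WT 2, the same arrays on which the spinal cord list is highest, at 2.73 and 2.52.

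Markers of other tissues moved with the muscle genes on some arrays and not on others. The spinal cord genes were high on WT 1 and WT 2, where the muscle genes were low. Of them, 7 of 11 passed the threshold for the interaction with date, against 0.831% of all tested probes. Among the 11, 1 gene, Gpr17, was called lower in dt27J (named after its value was seen), against 1.88% of the probes. For fat, 4 of 10 genes passed the interaction, against the same 0.831%. On WT 1 and WT 2 both lists were low, with medians of -0.85 and -0.86 for fat and -1.33 and -1.34 for muscle. On dt27J 1 and dt27J 2 the fat median was 1.28 and 0.98, and the muscle median 0.25 and 1.26. On dt27J 3, where the muscle median was 0.60, the fat median was -0.93. The part of other tissues in the muscle result was not tested. Without WT 1 and WT 2, an alternative added after the data were seen, the genotype difference is that between dt27J 3 and WT 3: the median over the muscle genes was 0.26, and no gene passed (6 at an unadjusted p under 0.05, limma). The lone WT array is assumed there to vary like the others, and the spread comes from dt27J 1 and dt27J 2 alone. Among the called genes, the differences for Myh1, Tcap, Mb and Ckmt2 were then 2.18, 2.20, 2.13 and 1.99. Those for the remaining called genes, Mybpc1, Tnnt3, Myog and Tpm2, were smaller, at 1.77, 1.2, 1.1 and 0.97. Myh2, which was not called, differed by 2.03, and the sign turned for 14 genes of the list.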

How the data were processed

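Agilent Feature Extraction 10.5.1.1 read the arrays, per the submitters' processing notes. Its processed signal, which the authors deposited, is a linear intensity with background subtracted, per the file headers. A deposited table holds the authors' own log2 values, centred on each probe's median; how it was normalized was not stated.

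Each array was scaled here by subtracting log2 of its 75th percentile (369.5 to 580) from log2 of the signal. Control and outlier spots were left out and spots of a probe averaged. Probes well above background on every array of 1 genotype or both were tested (26248 of 41174). Between 63.1% and 71.5% of an array's probes were that bright, and 0 were saturated. Accessions were matched to symbols through RefSeq (GRCm38.p6) (24836 probes named). limma 3.58.1 in R 4.3.3 (lmFit, eBayes) was fitted with genotype and label date, and a second fit had their interaction; p-values were adjusted by Benjamini-Hochberg over all tested probes, at a threshold of 0.05. The scripts were tested on simulated data. Slide and scan date in the file headers follow the label date. The number of arrays limits the precision.

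A gene stands for its brightest tested probe, every member may be named, values on all arrays are given for called members and the brightest of each role, and other lists are named by their brightest gene and extremes. The members, lists and this rule were chosen with earlier results of these data known. Alternatives covered scaling, background correction (normexp, offset 50), the filter, the authors' values, the date term, a replicate block, the probe per gene and each array left out. Normexp was to use the mean spot signal; the median spot signal in the files was used instead.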

Additional observations from a re-analysis of the deposited data

Results flagged for a closer look

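Myl1, the fast essential myosin light chain, was singled out because its genotype difference changed between the label dates by a tested interaction. dt27J minus WT was 3.14 at the first date and -1.07 at the second, so the first minus the second was 4.207 (SE 0.56, limma adjusted p = 0.046). The second date has 1 array per genotype, dt27J 3 at 3.24 and WT 3 at 4.31.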

How the results depend on the processing

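Over the alternatives the adjusted p of a called gene often crossed the threshold, while signs were mostly kept. The count of called muscle genes, 8, was 9 with quantile normalization, 8 with median scaling, 7 over probes well above background on all 6 arrays, 10 with the authors' deposited values and 7 with the mean over a gene's probes. With normexp it was also 8, but 4 of the genes were others: Mybpc1, Myog, Mb and Ckmt2 were lost (differences 0.57, 0.77, 1.63 and 1.2) and Tnnc2, Myh7, Myh8 and Pgam2 gained. It was 0 without the date term, 0 with no filter on dim probes (28 at an unadjusted p under 0.05, limma) and 0 without WT 1 and WT 2; 15 with normexp after high local backgrounds were replaced, an alternative added after the data were seen, as was that without WT 1 and WT 2; and 0 to 37 with single arrays left out, 37 being reached without dt27J 3 or without WT 3, which leaves the first date alone. Over all probes the count, 838, became 14 without the date term, 358 with normexp, 1423 with high backgrounds replaced, 0 with no filter (8485 at an unadjusted p under 0.05, limma), 0 without WT 1 and WT 2 (5538 unadjusted; WT 3 is then the lone WT array, and the spread comes from dt27J 1 and dt27J 2 alone), and 0 to 6805 with single arrays left out. The split over all probes, 344 higher and 494 lower, was 537 and 440 with quantile normalization, and 457 and 382 with median scaling. It was 614 and 561 with the authors' values, whose normalization is not stated, and 261 and 97 with normexp, a background correction.

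For the interaction, the muscle genes called, 1, became 0 with quantile normalization (21 unadjusted, limma), 0 with no filter (20 unadjusted), 13 with normexp, 18 with high backgrounds replaced, 4 over probes well above background on all 6 arrays, 9 with the authors' values, 4 with the mean over a gene's probes, and 0 to 32 with single arrays left out. Over all probes the 218 became 405 with no filter, 1142 with normexp, 2661 with high backgrounds replaced, 994 over probes well above background on all 6 arrays, 1623 with the authors' values, and 0 to 2858 with single arrays left out. It could not be fitted without the date, without WT 1 and WT 2, or without an array of the second date.

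Deviations from the genotype mean correlated at 0.219, -0.152 and 0.0625 between same-numbered arrays, and between -0.293 and 0.228 for the other pairs. With 3 arrays per genotype these values cannot decide whether the replicate numbers pair the samples. With the replicate number as a block, the genotype counts were 2 over all probes and 0 of the muscle genes (35 unadjusted, limma), and those of the interaction 39 and 0 (24 unadjusted).

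The median difference of the muscle genes, 1.62, stayed between 0.93 and 1.70 under the processing alternatives, ran between 1.03 and 2.14 with single arrays left out, and was 0.26 without WT 1 and WT 2. In that last setting the sign turned for Myh4 (-0.31), Mylpf (-0.32), Myl1 (-1.07), Actn3 (-0.58), Myoz1 (-0.18), Atp2a1 (-0.17), Myl3 (-0.81), Tnni1 (-0.26), Acta1 (-0.31), Neb (-1.44), Des (-0.22), Cacna1s (-0.059), Eno3 (-0.13) and Pvrl1 (0.56). It also turned for Pygm with normexp (-0.0068) and, with single arrays left out, for Pygm (-0.031 to 0.31) and Myod1 (-0.13 to 0.13), and for Myh4 with the mean over its probes (-0.49). The cause was not tested, beyond the arrays that each setting leaves out.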
